A study of Mus musculus with 4 samples.

Results

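The genes described here encode proteins of the cytosolic ribosome. Members were all genes whose symbol matches Rpl or Rps followed by digits, with an optional a, x or y, or Rplp followed by 0, 1 or 2, in the probe annotation of the array. The rule found 41 genes, 22 of the large and 19 of the small subunit, of 18193 genes with a probe set of their own. The rule uses symbols and no measured value, though it was written with earlier results of these data known. Where a gene has several probe sets, the one whose log2 signal averages highest stands for it. The symbols of all 41 were found in the RefSeq gene table.

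RNA of 3T3 cells, an immortal line of mouse embryonic fibroblasts, was measured on Affymetrix Mouse Genome 430 2.0 arrays. All cells were kept overnight in 0.5% serum. They were then harvested (basal, 1 array) or first exposed for 0.5, 2 or 12 h (1 array each) to TNF, tumour necrosis factor, a cytokine of inflammation. The TNF concentration was 10 ng/ml at 0.5 and 12 h, while the protocol text of the 2 h sample names none. No array holds cells left for 0.5, 2 or 12 h more in low serum without TNF, so TNF and the added time cannot be told apart. With 1 array in each of the 4 groups there is no spread between replicates and 0 tests were run. In what follows "rose" and "fell" mean a signal at least 2-fold above or below basal. A floor was set at the 30th percentile of all signals (9.08), and lower signals were raised to it.

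The ribosome translates mRNA into protein and is built from rRNA and one copy of most ribosomal proteins, the P-stalk proteins excepted. Its protein genes are transcribed at a high and matched rate in growing cells. Their mRNAs begin with a C and a run of pyrimidines, the 5′ terminal oligopyrimidine (TOP) tract, through which the kinase mTOR and the protein Larp1 set how well they are translated. Many of the genes have processed pseudogenes or retrocopies of near-identical sequence, and a short array probe can bind several of these transcripts. Because their levels vary little in many settings, some ribosomal protein genes are used as references in RNA measurements.

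A TOP tract is a known feature of these mRNAs, so the bases around the annotated start are shown for 10 of the genes. RefSeq promoter windows (GRCm38.p6, 250 bases before to 50 after the start) were found for 36 of the 41 genes. Each sequence below has 10 bases before the start and 20 from the start on, read along the gene's strand. Capitals mark the longest run of C and T of at least 6 bases that touches the 10 bases on either side of the start. A sequence without capitals has no such run. A marked run need not be the TOP tract, since it can end before the annotated start or begin after it, as in Rpl39. Whether the annotated start is the one used in these cells was not tested.
Rps27, chr3:90213629-90213658, minus strand: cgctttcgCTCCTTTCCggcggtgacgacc
Rps6, chr4:86857348-86857377, minus strand: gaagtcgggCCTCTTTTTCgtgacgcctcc
Rpl27a, chr7:109519185-109519214, plus strand: cgtgagCTCCTCCCTTTTCCCTTTCTgcca
Rpl35, chr2:39005112-39005141, minus strand: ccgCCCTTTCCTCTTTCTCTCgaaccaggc
Rps10, chr17:27635225-27635254, minus strand: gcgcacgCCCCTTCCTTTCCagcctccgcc
Rps18, chr17:33955646-33955675, minus strand: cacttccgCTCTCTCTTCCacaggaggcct
Rps24, chr14:24490668-24490697, plus strand: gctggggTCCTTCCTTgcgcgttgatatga
Rpl39, chrX:37085203-37085232, minus strand: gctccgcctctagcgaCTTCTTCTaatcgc
Rps4x, chrX:102189372-102189401, minus strand: gctgggcggagcaacccaggctccagcgcg
Rplp0, chr5:115559457-115559486, plus strand: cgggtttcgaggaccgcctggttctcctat

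A run of this kind was found for 24 of the 36 genes (66.7%), against 32.8% of the 13004 genes analysed that have a window. For Rps24 the first of its windows is shown, and a gene counted if any of its windows held the run. The letters CCGGAAG on either strand, a core bound by ETS factors such as Gabpa, stood in the 300 bases of 17 of the 36 genes (47.2%) and in 16.1% of all. The letters AAGATGGC on either strand, bound by Yy1, stood in 3 (8.33%, against 4.34%), and TATAAA on either strand in 5 (13.9%, against 10.8%). The binding motif of NF-kB, known as the kB site, was matched for 1 of the 36 (2.78%, against 8.17% of all). The motifs can overlap each other, and a match describes letters in this window, not a bound site.

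Before the results, the arrays were checked. Their median signal lay between 19.9 and 22.1. Of 10 fibroblast markers, 9 or 10 were above the floor on each array, with a summed signal between 34843 and 36126. Of 7 macrophage and leukocyte markers 4 were above the floor on each array, with a summed signal of 140.2 to 152; 3 were at the floor on all 4 arrays. The summed signals of 4 endothelial and 4 epithelial markers stayed between 48.0 and 94.8. Nfkbia, which encodes the NF-kB inhibitor IkB-alpha, served as a check of the TNF response. It had signals of 1843, 7476, 5826 and 5134 at basal, 0.5, 2 and 12 h, where TNF and the added time cannot be told apart. Of all 16269 genes analysed, 2.55% rose and 2.96% fell at 0.5 h, 2.58% and 3.6% at 2 h, and 2.79% and 5.18% at 12 h. At 2 h the 420 rises and 586 falls became 489 and 442 with cyclic loess normalization. At 12 h the 454 rises and 842 falls became 619 and 579 when arrays were centred on their medians, 643 and 555 after quantile normalization and 634 and 512 after cyclic loess.

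Ribosomal protein genes stayed close to basal at all 3 times. Their median log2 ratio to basal was -0.01 at 0.5 h, -0.06 at 2 h and -0.07 at 12 h, with interquartile ranges of 0.06, 0.11 and 0.08. Over all genes analysed the medians were -0.03, -0.09 and -0.14, and the interquartile ranges 0.34, 0.39 and 0.52. None of the 41 rose or fell at 0.5 h, 1 rose (Rps16) and 1 fell (Rps27) at 2 h, and 1 fell (Rps27 again) at 12 h. The shares over all genes given above are the background for these counts, and counts of 0 or 1 in 41 lie close to it.

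The members differed widely in signal, and their scatter went with it. A split at a mean signal of 1024, chosen after the values were seen, left 33 genes above it and 8 below. The member just above had a mean signal of 1284 (Rpl37) and the next 4002 (Rps19), while the member just below had 413 (Rps25). Signals of different probe sets are not levels of RNA that can be set against each other; the split serves to show scatter. Of the 33, none rose or fell at any time, and their largest distance from basal was 0.23 on the log2 scale (Rps3 at 2 h). All 8 below the split were measured by probe sets whose identifier ends in a plain _at, as were 4 of the 33; the others end in a_at (14), x_at (13) or s_at (2), marks that Affymetrix gives to probe sets shared by transcripts of a gene or by similar sequences.

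**Figure D1:**
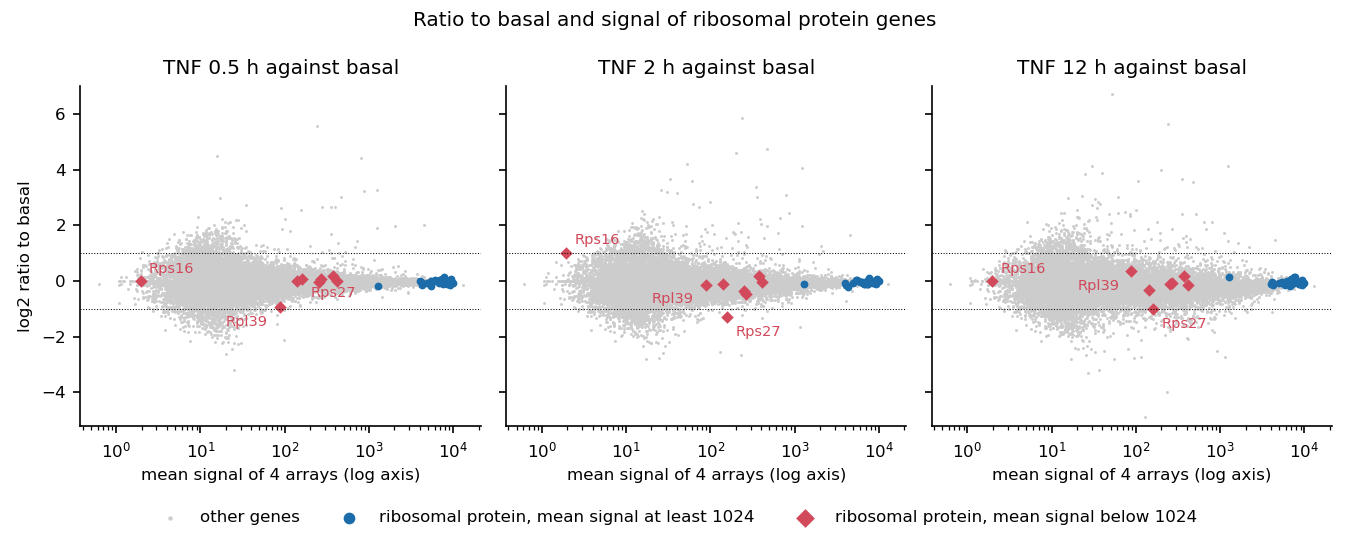
Log2 ratio to basal (vertical axis) against the geometric mean signal of the 4 arrays (horizontal log axis) for all 16269 genes analysed, with the 41 ribosomal protein genes in colour; dotted lines mark 2-fold. The 33 members above a signal of 1024 lie within 0.23 of basal at every time, while Rps27, Rpl39 and Rps16 stand apart at low signal.

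High signal alone was compared next. The other 716 genes with a mean signal in the span of the 33 members (1284 to 9968) had medians of -0.03, -0.08 and -0.17 and interquartile ranges of 0.09, 0.14 and 0.26 at the 3 times. The 33 members had medians of -0.01, -0.05 and -0.07 and interquartile ranges of 0.08, 0.09 and 0.06. The range of log2 signal over the 4 arrays was under 0.2 for 31 of the 33 members (93.9%) and for 41.2% of the 716. The median range was 0.11 for the 33 and 0.23 for the 716. Of the 716, 0.279% rose and 0 fell at 0.5 h, 0.419% and 0 at 2 h, and 0.559% and 0.978% at 12 h, beside which 0 of the 33 is close to the background. The 716 hold many genes of lower signal than most members. In the 101 other genes with a mean signal of at least 4096, the interquartile ranges were 0.08, 0.09 and 0.18, close to those of the members at 0.5 and 2 h and wider at 12 h. Nfkbia, among the 101, rose to 7476 at 0.5 h from a basal signal below 4096. It therefore does not show how a signal already this high moves. The highest signal on an array was 12211 to 14037, and the highest of a member 10285. Whether signals near the top of the scale compress ratios was not tested.

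The direction of so small a shift depended on the scaling of the arrays. At 12 h, 9 of the 41 members were above basal and 31 below in the deposited values, but 36 above and 4 below when arrays were centred on their medians, 27 and 13 after quantile normalization and 37 and 3 after cyclic loess, where the median was 0.11. At 0.5 h the deposited values put 14 above and 26 below, and median centring 30 and 10. The members' median minus that of all genes was 0.02, 0.03 and 0.07 (log2) at the 3 times in the deposited values, but -0.002, -0.01 and 0.01 after quantile normalization, so the sign of this offset too depended on the scaling. From one array to the next the members' median log2 step was -0.04 between 0.5 and 2 h and -0.01 between 2 and 12 h, with 20 of 41 members higher at 12 h than at 2 h.

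The medians of both subunits were close to basal, and the difference between the subunits was not tested. The 22 large subunit genes had median log2 ratios of -0.01, -0.07 and -0.07, and the 19 small subunit genes -0.01, -0.05 and -0.07. In the deposited values, 594 of the other 716 genes in the signal span of the 33 members were below basal at 12 h. Within the 33 members of high signal, 14 of 15 small subunit genes and 12 of 18 large subunit genes were below basal at 12 h. Rps14 was the small subunit gene above it.

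Among the 33, Rps4x, the X-linked gene of a small subunit protein, varied least. Its signals were 8125, 8147, 7899 and 7910 at basal, 0.5, 2 and 12 h, a range of 0.04 (log2). Rps24 (7376, 7364, 7137 and 7140) and Rpl27 (6468, 6390, 6230 and 6340) had the next smallest ranges, both 0.05. On these probe sets the lowest signal of all 3 genes was at 2 h and lay within 4% of basal, as the ratios of 97.2%, 96.8% and 96.3% show. Other own probe sets of high signal varied more, with a range of 0.14 on 1428530_x_at (Rps24) and 0.19 on 1448217_a_at (Rpl27).

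The genes with the highest signals had ranges of 0.09 (Rps29), 0.08 (Rps28) and 0.08 (Rpl35). Rps29, which encodes a small zinc-binding protein of the head of the small subunit, had signals of 10285, 9695, 10280 and 9630. Rps28 had 9638, 9586, 9664 and 9173, and Rpl35, whose protein lies by the exit of the peptide tunnel, 9132, 9671, 9644 and 9230. Rps29 was lower at 0.5 and 12 h than at the other times and Rps28 lowest at 12 h, while Rpl35 was highest at 0.5 h.

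The P stalk recruits elongation factors to the ribosome. Rplp0, its base and a frequent reference gene, had signals of 7641, 7991, 7790 and 7688, highest at 0.5 h. Rplp2, a stalk protein, had 7069, 7013, 6458 and 6788, lowest at 2 h, where its log2 ratio was -0.13. Rplp1 has no probe set of its own; the probe set 1416277_a_at, which lists it beside another gene, gave 8246, 8232, 8269 and 7996.

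Rpl11 is part of the 5S ribonucleoprotein, which binds Mdm2, the ubiquitin ligase of p53, when ribosome assembly fails. Its signals were 5633, 5012, 5686 and 5475, so that the 0.5 h array was the low one (log2 ratio -0.17). Rpl5, its partner, has no probe set of its own. Among probe sets listing it beside another gene, 1423665_a_at (basal signal 8072) had a log2 ratio of -0.10 at 12 h. At lower signal, 1451077_at (basal 509) had -0.54 and 1423666_s_at (basal 400) had -0.52 at 12 h. Mdm2 itself fell at 2 h: its signals were 255, 210, 126 and 135, and its log2 ratio was -1.01 at 2 h and -0.91 at 12 h. The 2 h ratio was short of 2-fold, -0.92 to -0.89, under all 4 other scalings. It also depended on the probe set: with all probe sets of Mdm2 averaged it was -0.98, and with only those ending in plain _at -0.69. The average at 12 h was -1.63.

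Of the members of high signal, Rps3, Rpl37 and Rpl6 lay farthest from basal, and Rps14 lay farthest above it. Rpl37 had signals of 1323, 1158, 1226 and 1445, the lowest of the 33 on every array, and a range of 0.32. It was below basal at 0.5 h (log2 ratio -0.19) and above it at 12 h (0.13). A probe set of higher signal that lists Rpl37 beside the retrocopy Rpl37rt, 1453729_a_at, gave 7181, 7107, 7085 and 6710, a range of 0.10. Rps3, a protein at the mRNA entry channel, had 4672, 4240, 3975 and 4224, below basal on all 3 later arrays. A probe set of Rps3 with lower signal, 1455600_at, gave 186, 166, 190 and 237, with log2 ratios of -0.17, 0.03 and 0.35. Rps14, a protein of the platform of the small subunit, had 7224, 7915, 7832 and 7891 and was above basal on all 3, with log2 ratios of 0.13, 0.12 and 0.13. Its other probe set gave 6175, 6237, 6100 and 5979, with log2 ratios of 0.01, -0.02 and -0.05. Rpl6 went from 7230 to 6790, 6648 and 6374, a log2 ratio of -0.18 at 12 h. Rpl13a, which is known also as part of the GAIT complex that silences translation of some inflammatory mRNAs after interferon-gamma, had 7137, 7514, 7302 and 7787, a log2 ratio of 0.13 at 12 h. Its other 3 own probe sets had log2 ratios of -0.14, -0.05 and 0.13 at 12 h; the highest of them gave 4293, 3949, 3985 and 3889. In all, 19 of the 33 were below basal on every later array and 4 above it. Most genes of like signal were below basal too: at 12 h, 594 of the other 716, beside 26 of the 33.

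**Figure D2:**
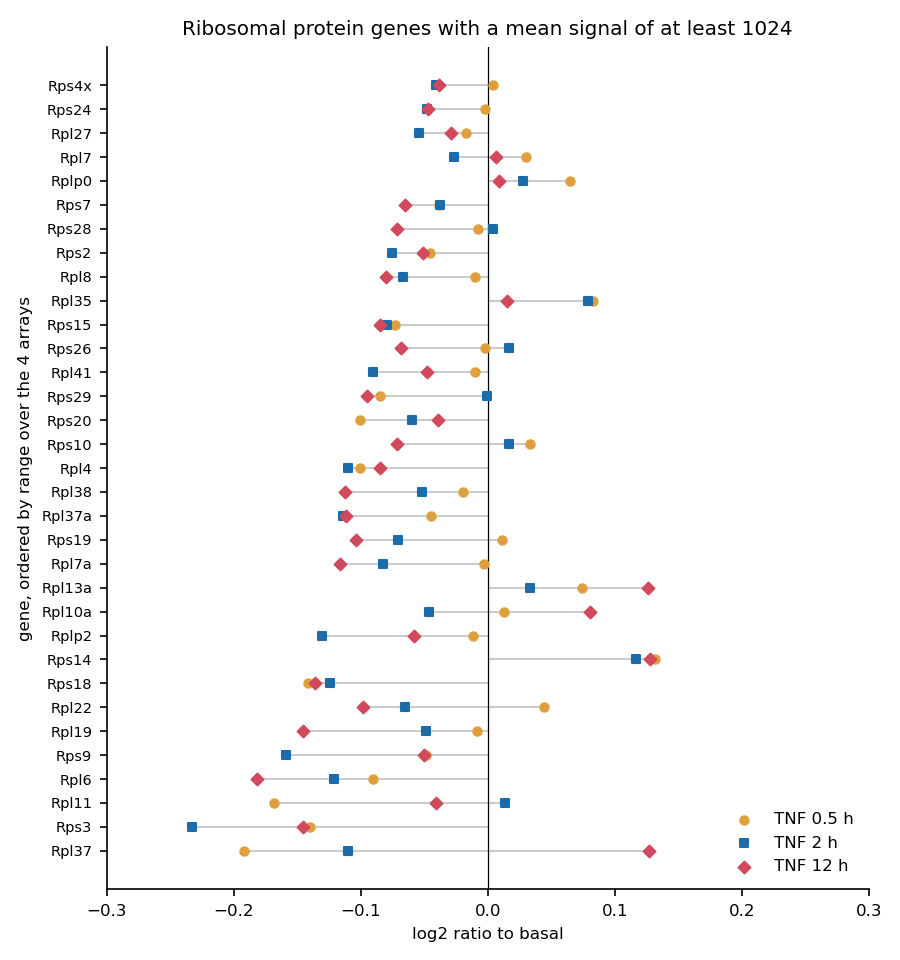
Log2 ratio to basal (horizontal axis) at 0.5, 2 and 12 h of TNF for the 33 ribosomal protein genes with a mean signal of at least 1024, ordered from the smallest range over the 4 arrays (top) to the largest. Points lie between -0.23 and 0.13, and most are left of 0.

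Probe sets of the same gene gave a measure of how far such small shifts can be read. For 16 members more than 1 own probe set had a mean signal of at least 1024. The log2 ratios of the probe sets of one gene differed by a median of 0.12, 0.10 and 0.12 at the 3 times and by up to 0.28, 0.23 and 0.27. The shifts of Rps14 and Rpl13a are of this size. Rps9 was the one member whose probe sets with a signal above 102, the 75th percentile, disagreed on a 2-fold change. Its own highest probe set (1433689_s_at) had 4310, 4168, 3860 and 4161, while 1434624_x_at had 331, 163, 140 and 231.

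Rps27 had the lowest log2 ratio of the members at 2 and 12 h. It encodes a small zinc-finger protein of the small subunit. Its own probe set, 1460699_at, had signals of 235, 249, 95.1 and 116 at basal, 0.5, 2 and 12 h. The basal and 0.5 h arrays were high, and the 2 h and 12 h arrays low. It fell 2.47-fold at 2 h (log2 ratio -1.31) and by 1.02 on the log2 scale at 12 h. The fall at 12 h was short of 2-fold when arrays were centred on their medians (log2 ratio -0.87), after quantile normalization (-0.80) and after cyclic loess (-0.79). This is the only probe set annotated to Rps27 alone. The probe set 1415716_a_at is annotated to Rps27 and to the retrocopy Rps27rt together, so it names neither gene. It gave 5492, 5557, 4972 and 5173, with log2 ratios of 0.02, -0.14 and -0.09. The paralog Rps27l, which encodes a near-identical protein, had 3589, 3294, 3273 and 3030, a log2 ratio of -0.24 at 12 h.

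Rps16, a protein of the head of the small subunit, was the member that rose, from the floor. Its own probe set, 1455835_at, had signals of 1.07, 0.502, 18.3 and 1.47, so the 2 h array alone was above the floor. Against the floor this is at least 2.01-fold at 2 h, a bound set by the floor: with the floor at the 20th percentile the log2 ratio was 1.93 in place of 1.01. The gene entered the analysis only through that array and so had to differ there; without it 0 members rose at 2 h. With the floor at the 50th percentile it was at the floor on all 4 arrays. The probe set 1437196_x_at, which lists Rps16 beside a pseudogene and another locus, gave 7758, 7782, 7219 and 7250.

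Rpl39, X-linked and among the smallest ribosomal proteins, had signals of 101, 52.0, 91.7 and 128 on 1423032_at. The 0.5 h array was the low one, with a log2 ratio of -0.95, short of 2-fold, and the 12 h array the high one (0.35). The probe set 1450840_a_at, which lists Rpl39 with another locus, gave 7331, 7128, 7199 and 7281, a range of 0.04.

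The other 5 members below a signal of 1024 did not rise or fall. Rps6, the substrate of S6 kinase, had 342, 386, 387 and 382, above basal on all 3 later arrays by 0.16 to 0.18 (log2). Rpl27a had 291, 302, 209 and 272, and Rpl14 275, 268, 212 and 255, both lowest at 2 h with log2 ratios of -0.48 and -0.37. Rpl12 had 152, 153, 142 and 121, lowest at 12 h (-0.32), and Rps25 431, 424, 414 and 385 (-0.16 at 12 h).

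For all 8 members below 1024 the annotation also holds a probe set of high signal that lists the symbol with other genes. The highest such probe set of each member had a basal signal between 5135 and 9976. The log2 ratios of these highest probe sets lay between -0.18 and 0.05 over the 3 times. Others lay farther from basal: for Rps6 at 0.5 h, 1435817_x_at (basal signal 1704) had -0.33 and 1454620_x_at had 0.20. Probe sets that list several genes measure the sum of what binds them, so a change in the named gene alone and one in its copies cannot be told apart there. Over the whole array 110 probe sets list a ribosomal protein symbol beside other genes, and 27 symbols occur only on such probe sets. Of the 110, 83 had a mean signal of at least 1024. None of the 83 rose or fell, and their median log2 ratios were -0.02, -0.05 and -0.08. Of the 27 below 1024, 1 was at the floor on all arrays, 1 fell at 0.5 h, 1 rose at 2 h and 2 fell at 12 h. Of the members' own probe sets, none of the 64 at or above 1024 rose or fell, and of the 25 below 1024 that passed the floor 1 rose and 3 fell at 0.5 h, 1 rose and 4 fell at 2 h, and 2 fell at 12 h. Over all 1748 probe sets at or above 1024, 0.4% rose and 0 fell at 0.5 h, 0.458% and 0.0572% at 2 h, and 0.629% and 0.801% at 12 h. Over the 36419 below 1024 that passed the floor, 3.08% rose and 3.68% fell at 0.5 h, 2.97% and 4.31% at 2 h, and 2.92% and 6.11% at 12 h. With so few probe sets of the members below 1024, their counts were not compared further.

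**Figure D3:**
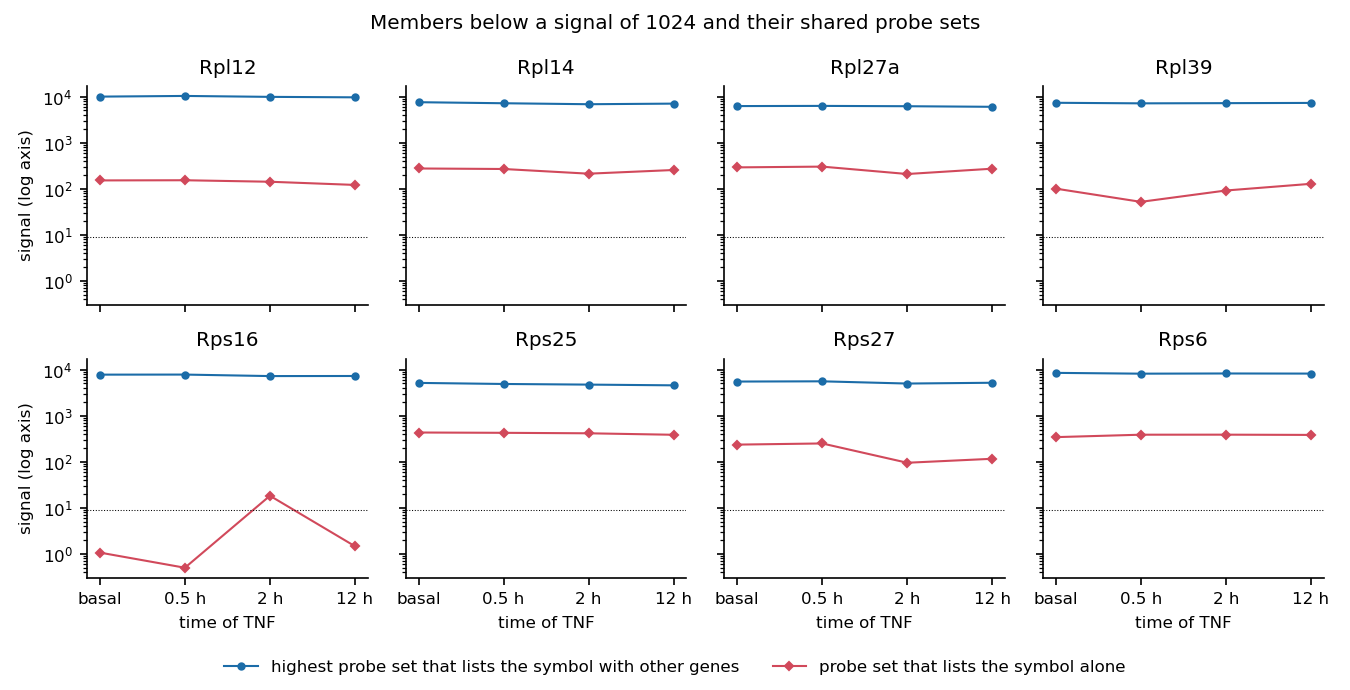
Signal (vertical log axis) on the basal array and at 0.5, 2 and 12 h of TNF for the 8 members below a mean signal of 1024: the probe set that lists the symbol alone (diamonds) and the highest probe set that lists it with other genes (circles). The dotted line is the floor of 9.08; the circles stay between 4546 and 10319 in every panel.

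Diamond-Blackfan anaemia is an inherited failure of red cell production. Of a chosen list of 14 genes known to be mutated in it, which is not complete, 9 were members. These 9 had median log2 ratios of -0.002, -0.001 and -0.07. Only Rps27 among them fell; the farthest of the others was Rpl11 at 0.5 h. Rps19, the first gene found in that disease, had 4117, 4148, 3920 and 3832. The ribosomal protein genes outside the symbol rule, Rpsa (9193, 8936, 8837 and 8721) and Fau (4399, 4384, 4368 and 4279), had ranges of 0.08 and 0.04. Of the 4 paralogs analysed Rpl39l rose at 12 h, from 11.8 to 31.6, with the 0.5 h and 2 h arrays at the floor; with the floor at the 50th percentile its log2 ratio was 0.59.

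Lists of other genes that serve the ribosome held few calls. Over all genes analysed, 2.55% to 2.79% rose and 2.96% to 5.18% fell at the 3 times. At such shares lists of 15 to 38 genes would hold few calls, so their counts are close to the background. Of 20 elongation factors and other mRNAs known for a TOP tract, 0 rose or fell, and their medians were -0.03, -0.08 and -0.13. Nap1l1 (1524, 1506, 1318 and 1036) and Npm1, a nucleolar chaperone (5166, 5271, 4660 and 3804), were lowest at 12 h. Eef1a1, the main elongation factor, had 9640, 9574, 9235 and 9171. Of 38 ribosome biogenesis genes 0 passed 2-fold in either direction, with medians of -0.13, -0.05 and 0.05. Of all 16269 genes analysed, 9055 were below basal at 0.5 h, and 5060 were above and 10239 below at 12 h. Of the 38, 30 were below basal at 0.5 h, and 20 were above and 18 below at 12 h. The largest differences were those of Rrp9 (76.1, 141, 123 and 130) and Rrp12 (55.6, 35.2, 54.8 and 66.4). Eif6, which keeps the subunits apart, went from 888 to 1204 at 12 h (log2 ratio 0.44). Of 15 genes of RNA polymerase I, which transcribes rRNA, 0 passed 2-fold, with medians of -0.03, -0.09 and -0.02. Polr1e had the largest difference, 0.94 at 12 h (80.0 to 153). Of 16 regulators of ribosomal protein synthesis Mdm2 alone fell, at 2 h. Eif4ebp1, the translation repressor under mTOR, went from 3024 to 4113 at 12 h (0.44).

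A pair of other multi-subunit machines served for comparison. The 34 constitutive proteasome genes had medians of -0.07, -0.12 and -0.18 and interquartile ranges of 0.09, 0.10 and 0.17. The 76 mitochondrial ribosomal protein genes had medians of -0.06, -0.15 and -0.12 and interquartile ranges of 0.15, 0.20 and 0.28. In both, 0 genes rose or fell, while 2.55% to 2.79% of all genes analysed rose and 2.96% to 5.18% fell. Mrpl18 (1109, 1053, 907 and 631) and Mrpl37 (298, 270, 175 and 183) were among the lowest at 12 h. The 11 common reference genes that have an own probe set had medians of -0.13, -0.09 and -0.30. Actb had 8498, 8501, 8255 and 8435, a range of 0.04, while Polr2a went from 220 to 152 and Tbp from 314 to 242 at 12 h. Of the 11 genes 0 passed 2-fold, which in so short a list is close to the background of all genes. These lists also had lower signals, and scatter went with signal. The median of the mean signals was 6828 for the 41 members and 1573 for the proteasome. It was 498 for the mitochondrial list and 1531 for the reference genes. Differences between lists were not separated from differences in signal, and the lists were not recomputed under other scalings. With 1 array per group, none of these differences between lists was tested.

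**Figure D4:**
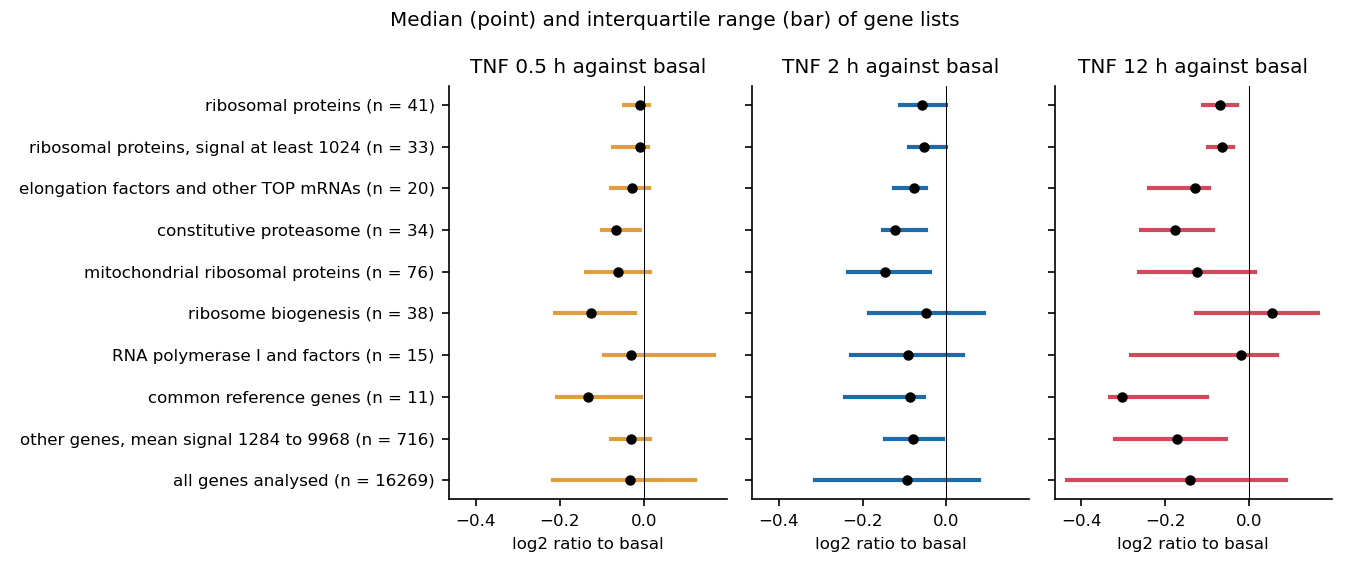
Median (point) and interquartile range (bar) of the log2 ratio to basal for ribosomal protein genes, related gene lists, the other genes in the signal span of the 33 high members, and all genes, at 0.5, 2 and 12 h of TNF. At 12 h the ribosomal protein bar spans 0.08 and that of all genes 0.52.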

How the data were processed

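The authors deposited 1 linear intensity for each of 45101 probe sets, 64 of them controls, on every array. The RNA input was 8 µg, per the labels. How the authors computed and scaled the signal is not given in the sources used here. The probe annotation named 34945 probe sets by 1 gene; those listing several genes named none. A gene took its probe set of highest mean log2 signal, and mean signals are geometric. Values below the 30th percentile (9.08) were raised to it, 16269 genes with a value above it were analysed, and log2 ratios to basal were taken with no further scaling, in Python 3.11.15 (limma 3.58.1 for quantile and loess alternatives). The calculation was tested on simulated data. Named genes were those past 2-fold, the 3 extremes of signal, ratio and range, and fixed small groups; in other lists, genes past 2-fold and up to 4 of the largest changes. Rps3, Rps19, Rps25, Rpl13a, Eef1a1 and Actb lie outside this rule and were named after their values were seen. Members and lists were chosen with earlier results of these data known. Precision is limited by 1 array per group.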

Additional observations from a re-analysis of the deposited data

How the results depend on the processing

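Alternatives were other floors, scalings, probe set choices, fold rules and references. The median at 12 h (-0.07) became 0.081 with median centring and 0.11 with cyclic loess. The single rise at 2 h became 0 with the floor raised to the 50th or 75th percentile and with the 3-fold rule. The single fall at 2 h became 2 when all probe sets of a gene were averaged and 0 with the 3-fold rule. The single fall at 12 h became 0 with median centring, quantile normalization, cyclic loess, centring on the ribosomal protein genes and the 3-fold rule, and 2 with averaged probe sets. At 0.5 h, 1 gene fell with no floor or the 1.5-fold rule. Among the 21 genes with a probe set ending in plain _at, 1 rose and 1 fell at 0.5 h, 3 fell at 2 h and 2 at 12 h, with interquartile ranges of 0.55 at 2 h and 0.25 at 12 h. In 2 alternatives added after seeing the data, without members below 1024 and with probe sets listing several genes (68 symbols), 0 genes rose or fell at 2 or 12 h. Rps27 at 12 h against the preceding array was 0.29 higher (log2), and Rps16 at 2 h was -0.10 on a probe set listing several genes. The other 137 values for the whole list kept within 0.1 (log2) or 1.5 times. The causes were not tested beyond the fewer genes or higher folds each alternative sets. No paired analysis was possible because each group has 1 array; leaving out a replicate was likewise not possible. Low signals limit what the 8 weak members can show.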

Other observations

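The control probe sets for 18S rRNA, the RNA of the small subunit, lie outside the gene comparisons. Their 5′ probe set gave 462, 382, 273 and 263 at basal, 0.5, 2 and 12 h, the middle one 234, 242, 160 and 210, and the 3′ one 198, 194, 108 and 141. All 3 were lower at 2 and 12 h than at basal, the middle and 3′ ones lowest at 2 h. Whether these signals follow the amount of 18S rRNA was not tested. The 41 ribosomal protein genes held 4.90%, 4.93%, 5.04% and 5.33% of the summed signal of all genes with an own probe set on the same arrays. Their own median signal did not go up with this share: it was 7069, 6940, 6648 and 6636. The median signal of all probe sets went from 22.1 at basal to 19.9 at 12 h.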
